A study of Mus musculus with 16 samples.

Results

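The genes described here are 6 that make or move lipid-carrying particles in the brain: the secreted carriers Apoe (apolipoprotein E), Apod (apolipoprotein D) and Clu (clusterin, also called apolipoprotein J), the lipid exporters Abca1 and Abcg1, and the lipoprotein receptor Lrp1. They were taken by symbol from the 30389 genes that the count tables list, with earlier results of these data known. Apoe was highest in macrophage-like and astrocyte-like cells, Clu in astrocyte-like cells, Apod in oligodendrocyte-like cells, Abca1 in microglia-like cells, Abcg1 in oligodendrocyte-like cells and Lrp1 in cells resembling oligodendrocyte precursor cells (OPC). Between genotypes, 1 difference passed the test: Apoe was higher in microglia-like cells of THY-Tau22 males than of wild-type (WT) males. That call held in 13 of 25 alternatives and was lost without any 1 of 8 libraries. Its log2 fold change went from 1.91 to 0.21 with the share of mitochondrial mRNA as a further term, an alternative added after seeing the data. In males that share and genotype cannot be told apart, so this change does not decide between them.

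In the brain, cholesterol and phospholipid travel between cells on small particles rather than on plasma lipoproteins. Astrocytes are known as the main makers of these particles; Abca1 and Abcg1 load lipid onto Apoe and other carriers, and neurons and glia take the particles up through receptors of the low-density lipoprotein receptor family, of which Lrp1 is a large, widely used member. Apoe is also known as a gene that microglia turn on around damage and protein deposits, Clu as an extracellular chaperone, and Apod as a lipocalin made by oligodendrocytes and by perivascular cells.

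Cells were dissociated from fresh neocortex of 17-month-old mice and captured in droplets with barcoded beads (Drop-seq), so that each mRNA molecule was counted once by its unique molecular identifier (UMI). THY-Tau22 mice, heterozygous for human 4-repeat tau with the G272V and P301S mutations, were compared with WT littermates within each sex; the transgene is driven by the neuronal Thy1.2 promoter, whereas the 6 genes were read mostly in glia. The labels give 8 males (4 WT, 4 THY-Tau22) and 8 females (3 WT, 5 THY-Tau22), described as 1 library per mouse (the titles of WT male 1 and THY-Tau22 female 1 share a code of unstated meaning), on a line kept by crossing to C57Bl6/J. The labels name no agent and no other transgene.

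The libraries labelled WT male 3 and THY-Tau22 male 4 shared 2952 of their 3000 barcodes (98.4%), against 3 to 12 for other pairs, and were left out of every level and test, which leaves 3 mice per male group and 14 libraries. These held 1041675 to 2237505 UMIs each and 24578 barcodes with 200 to 7000 detected genes (kept cells; 1121 to 2526 per library, median 429 to 736.5 UMIs per cell). A further 17422 barcodes with fewer than 200 genes (median 124 to 310 UMIs per library) served as a measure of free RNA and are called low-count barcodes. Some of them may be shallow cells, which was not tested. Classes named "-like" came from clusters and marker lists, and the 6 genes were not used for clustering: 6819 microglia-like, 4538 astrocyte-like, 4300 oligodendrocyte-like, 3298 endothelial-like, 1198 neuron-like, 1113 OPC-like, 910 mural-like, 393 macrophage-like, 148 fibroblast-like and 126 ependymal-like cells, with 1735 unnamed. The larger of 2 microglia-like clusters was led by Ccl4, Plek and Cd83. An unnamed cluster led by Npy, Kif5a and Fabp7 held 28.7% of the cells of THY-Tau22 male 3.

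In the mouse genome (GRCm38, GENCODE vM21) each of the 6 is a protein-coding gene on a chromosome of its own. Apoe lies at chr7:19696109-19699188 on the minus strand, Apod at chr16:31296192-31314808 on the minus strand and Clu at chr14:65968483-65981547 on the plus strand. Abca1 lies at chr4:53030787-53159895 on the minus strand, Abcg1 at chr17:31057675-31117988 on the plus strand and Lrp1 at chr10:127538161-127621148 on the minus strand. Abca1 and Abcg1 are known targets of the liver X receptors (LXR), which bind a direct repeat of a short half-site with a spacer of 4 bases. The letters GGTNANNNNNGGTNA, a loose form of such a repeat, were searched on both strands of the RefSeq promoter windows (GRCm38.p6, 300 bases, 250 of them before the start) and were found in 236 of 32851 windows (0.718%). Windows were at hand for 4 of the 6 genes, Apoe, Apod, Abca1 and Lrp1, and the letters occurred in that of Abca1 alone. The form of the repeat was chosen with the Abca1 element in mind, so this match is a description. The 250 bases before the start, on the minus strand and 5′ to 3′, are shown for Abca1 because it holds the match (capitals, which read as the repeat on the opposite strand; bases 184 to 198 of the window) and for Apoe because it is the gene with the genotype difference; they are chr4:53159896-53160145 and chr7:19699189-19699438.

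Abca1: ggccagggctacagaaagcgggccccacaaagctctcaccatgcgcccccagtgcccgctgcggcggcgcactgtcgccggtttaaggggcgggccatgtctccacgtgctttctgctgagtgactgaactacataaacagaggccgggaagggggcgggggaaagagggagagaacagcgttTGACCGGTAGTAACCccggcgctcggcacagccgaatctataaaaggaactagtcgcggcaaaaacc

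Apoe: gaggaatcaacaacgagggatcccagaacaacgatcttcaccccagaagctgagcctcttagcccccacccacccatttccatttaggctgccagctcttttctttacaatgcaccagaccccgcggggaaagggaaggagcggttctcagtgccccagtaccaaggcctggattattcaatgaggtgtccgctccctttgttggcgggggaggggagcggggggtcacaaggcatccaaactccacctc

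Levels are given as CPM, a gene's UMIs per 1000000 UMIs of the same cells in one library. Among the carriers, Apoe stood at a median of 10672 CPM in macrophage-like cells (5956 to 30129.6; 13 libraries with at least 10 such cells) and at 7087 CPM in astrocyte-like cells (4096 to 14338; 14 libraries). Among the other large classes the order was OPC-like cells (2023 CPM), oligodendrocyte-like cells (994 CPM), microglia-like cells (612 CPM; 187 to 2013), endothelial-like cells (399 CPM) and neuron-like cells (245 CPM). The astrocyte-like range lay above the OPC-like range without overlap, with a median 3.50 times as high, while each later pair of neighbours overlapped, although OPC-like cells exceeded oligodendrocyte-like cells in 14 of 14 libraries. Because the class is large, astrocyte-like cells gave 56.0% of all Apoe UMIs in kept cells (39.3 to 67.1% per library), macrophage-like cells 10.4% and microglia-like cells 7.08%.

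Clu, which also binds and carries lipid, was at a median of 4224 CPM in astrocyte-like cells (3026 to 6281) and at 2097 CPM in the few ependymal-like cells (4 libraries). Fibroblast-like cells (1315 CPM) and OPC-like cells (466 CPM) followed, and microglia-like cells stood at 61.9 CPM. Among the 6 larger classes the astrocyte-like and OPC-like ranges did not overlap, and neither did the OPC-like and endothelial-like ranges. Astrocyte-like cells held 77.4% of its UMIs. Apod was at a median of 3180 CPM in oligodendrocyte-like cells (2006 to 5934), which held 79.4% of its UMIs, at 1138 CPM in fibroblast-like cells and at 422 CPM in mural-like cells. In oligodendrocyte-like cells it was above the neuron-like range without overlap (a median 22.5 times as high), while the order of neuron-like, endothelial-like, OPC-like, astrocyte-like and microglia-like cells rested on overlapping ranges. The 3 carriers differed in main source, astrocyte-like for Apoe and Clu and oligodendrocyte-like for Apod.

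The exporters were measured at lower counts. Abca1, which moves cholesterol and phospholipid onto lipid-poor carriers, was at a median of 223 CPM in microglia-like cells (145 to 254), 115 CPM in OPC-like cells, 113 CPM in astrocyte-like cells and 28.4 CPM in oligodendrocyte-like cells. Microglia-like cells exceeded OPC-like cells in 14 of 14 libraries, with a median 1.94 times as high, though the ranges overlapped, and OPC-like and astrocyte-like cells did not differ beyond their spread. Abcg1, which passes cholesterol on to particles that already hold lipid, was at 125 CPM in oligodendrocyte-like cells (86.4 to 177), 98.6 CPM in OPC-like cells and 70.8 CPM in microglia-like cells. In astrocyte-like cells it had 6 UMIs in all 14 libraries together, a median of 0 CPM, so the class with the most Apoe and Clu UMIs had the fewest Abcg1 counts among the 6 larger classes. Lrp1, which takes up Apoe-bearing particles, was at 361 CPM in OPC-like cells (267 to 735), 202 CPM in microglia-like cells, 120 CPM in astrocyte-like cells, 92.4 CPM in neuron-like cells and 7.00 CPM in oligodendrocyte-like cells. The OPC-like range lay above the microglia-like range without overlap (a median 1.79 times as high), and neuron-like above endothelial-like cells likewise.

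**Figure D1:**
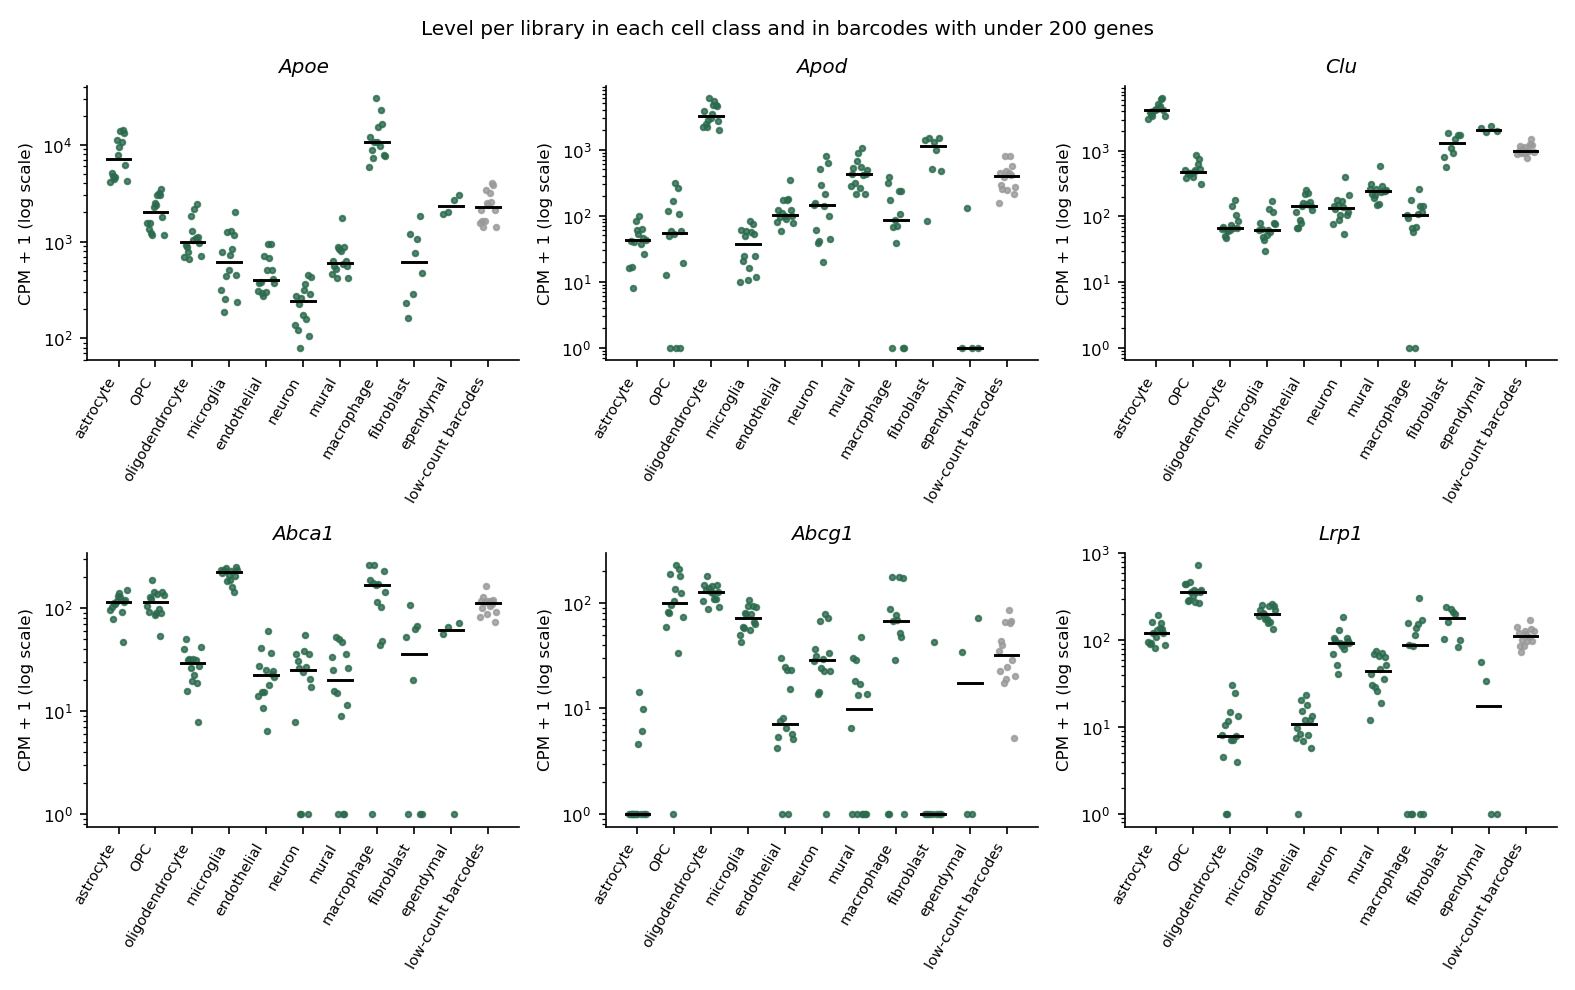
Level of each of the 6 genes by cell class, on a log axis of CPM + 1; each point is 1 of the 14 compared libraries with at least 10 cells of the class, black bars are medians, and grey points are low-count barcodes. Apoe peaks in macrophage-like (median 10672 CPM) and astrocyte-like cells (7087 CPM), Apod in oligodendrocyte-like cells (3180 CPM), Clu in astrocyte-like cells (4224 CPM) and Lrp1 in OPC-like cells (361 CPM).

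All 6 transcripts were also read outside kept cells. In low-count barcodes Apoe stood at a median of 2259 CPM (1399 to 3994), Clu at 980.5 CPM and Apod at 398 CPM, against 112 CPM for both Abca1 and Lrp1 and 30.9 CPM for Abcg1. Apoe in microglia-like, oligodendrocyte-like, endothelial-like and neuron-like cells was below the low-count level in 14 of 14 libraries, while in astrocyte-like cells it was above it in 14 of 14. If one source supplied all Apoe in a class, its ratio to the summed astrocyte markers would be that of astrocyte-like cells, which was 0.228 in the median library and 0.257 in low-count barcodes. It was 0.809 in microglia-like, 1.38 in oligodendrocyte-like and 14.8 in macrophage-like cells. Scaled by their astrocyte markers, a median of 34.3% (14.5 to 62.2%) of microglial Apoe, 15.7% of oligodendroglial Apoe and 31.1% of OPC Apoe would come from astrocyte RNA, against 133% in neuron-like cells. The same calculation gave 145% of the Clu in microglia-like cells, so the microglial Clu level was no higher than its astrocyte markers gave.

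To compare shares of cells across depths, each cell was thinned to 300 UMIs, which left out 5.18% of microglia-like and 1.92% of astrocyte-like cells. An Apoe UMI was then present in 78.8% of astrocyte-like cells (95% exact binomial interval 77.6 to 80.0%, counting error only), 26.0% of oligodendrocyte-like cells and 10.7% of microglia-like cells (9.93 to 11.4%), against 5.66% in neuron-like cells. Without thinning the shares were 89.9% in astrocyte-like, 17.8% in microglia-like and 14.7% in neuron-like cells, at median depths of 550, 502 and 724 UMIs. Microglia-like cells with a UMI of Clec7a, Cst7 or Itgax, genes known to mark microglia around damage, held more Apoe per cell than the rest in 12 of 14 libraries: the median over libraries was 0.604 UMI per thinned cell in the 149 cells with a marker and 0.167 in the 6317 without.

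The question put to these data was whether the level of each gene differed between THY-Tau22 and WT mice of the same sex. UMIs were summed per mouse, over all kept cells and within 6 classes, and tested with edgeR's quasi-likelihood test over all genes that passed a filter on low counts; a gene was called at an adjusted p (Benjamini-Hochberg) under 0.05 and a log2 fold change of at least 0.5 in size. In a sum over all kept cells, fewer cells of a type and less RNA per cell cannot be told apart. Exact two-sided permutation tests on CPM cannot go below p = 0.10 with 3 males against 3, nor below 0.0179 with 5 females against 3, and no adjusted value over the 96 tests was under 0.565.

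Apoe in microglia-like cells was 319, 187 and 251 CPM in the 3 WT males and 1266, 505 and 1300.0 CPM in the 3 THY-Tau22 males. Every THY-Tau22 male was above every WT male, as for 15.9% of the genes tested in this class. The means were 1024 ± 449 and 252 ± 65.6 CPM (SD, n = 3 each, exact permutation p = 0.10). In females the values were 846, 1162 and 239 CPM in WT and 785, 437, 719, 2013 and 456 CPM in THY-Tau22 mice, so the groups overlapped, with 1 THY-Tau22 female far above the others. The edgeR log2 fold change was 1.91 ± 0.45 (SE) in males, with an adjusted p of 0.0421, and 0.27 ± 0.39 in females (adjusted p = 0.996). Of 5089 genes tested in microglia-like cells of males, edgeR called 39 (0.766%), 35 of them higher (0.688%), and Apoe was the only one of the 6 genes among them. The difference between the sexes, 1.64 ± 0.59, did not pass (adjusted p = 0.222). Without WT female 3 it was 2.03 (0.0154) and without THY-Tau22 female 4 it was 2.14 (0.0331). Without both MB22 libraries, a code that sets 2 titles apart, WT female 3 among them, it was 1.85 (0.0274). Without WT female 3 the sex difference was called for 448 genes in microglia-like cells, against 0 with all 14 libraries.

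The microglial call in males held in 13 of 25 alternatives, with log2 fold changes from 0.21 to 2.21 and adjusted p from 4.71e-07 to 0.9997. It was lost without any 1 of 8 libraries: the adjusted p was 0.172 without WT male 1, 0.127 without WT male 2, 0.232 without WT male 4, 0.154 without THY-Tau22 male 1, 0.256 without THY-Tau22 male 3, 0.0544 without THY-Tau22 female 1, 0.0641 without THY-Tau22 female 3 and 0.0595 without WT female 1. It was also lost with DESeq2 (1.91, 0.0544) and with the shared library kept as a THY-Tau22 male (1.57, 0.280). One cell held 78 of the 314 microglial Apoe UMIs of THY-Tau22 male 1 (24.8%). By thinned cells, an Apoe UMI was present in 15.5 ± 6.74% of microglia-like cells of THY-Tau22 males, against 6.37 ± 0.949% for WT males, and the males did not overlap (exact permutation p = 0.10); unthinned, the shares were 27.9 ± 19.2% and 9.75 ± 2.92% and overlapped. The share of thinned microglia-like cells with a Clec7a, Cst7 or Itgax UMI also separated the males, at 4.53 ± 1.30% in THY-Tau22 and 1.39 ± 0.0847% in WT mice (exact permutation p = 0.10). These shares rest on few cells with a marker, 23, 17 and 12 in the THY-Tau22 males and 10, 6 and 6 in the WT males. How many other genes separated the males by such shares is not given here. In microglia-like cells without a Clec7a, Cst7 or Itgax UMI, Apoe was 0.260 ± 0.111 UMI per thinned cell in THY-Tau22 males, against 0.0749 ± 0.00950 for WT males, again without overlap.

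In astrocyte-like cells, its largest source, Apoe was 4096, 4767 and 4485 CPM in WT males and 11204, 7942 and 14049 CPM in THY-Tau22 males. All 3 THY-Tau22 males were above the WT males (11065 ± 3056 against 4449 ± 337 CPM), as for 22.2% of the genes tested in this class. WT females at 10663, 14338 and 4272 CPM and THY-Tau22 females at 5072, 4688, 9398.5, 13130 and 6232 CPM overlapped. The edgeR fold change in males was 1.04 ± 0.32 with an adjusted p of 0.153, and it was called without WT female 3 (1.03, adjusted p = 0.0248) and without the MB22 libraries (1.04, 0.0288). The same settings called the difference between the sexes in this class (1.59, adjusted p = 0.0028, and 1.56, 0.0060), which was 1.31 ± 0.43 with all 14 libraries (0.133). Leaving out 1 library gave up to 125 calls in males in this class and up to 659 for the sex difference. With all 14 libraries both counts were 0. In females it was -0.27 ± 0.28 (adjusted p = 1.00). No gene of 3985 was called in males in this class (0%; 684 at an unadjusted p under 0.05; 4 called by DESeq2). Over all kept cells Apoe was 1203, 1402 and 1199 CPM in WT males and 3688, 2119 and 3905 CPM in THY-Tau22 males. Again no value overlapped, as for 22.4% of the genes tested there. The fold change of Apoe was 1.17 ± 0.35 (adjusted p = 0.228) in males and -0.25 ± 0.30 in females, and their difference 1.42 ± 0.46 (adjusted p = 0.291). This difference was called without WT female 3 (1.72, 0.0161), without the MB22 libraries (1.67, 0.0270) and without the filter on low counts (1.37, 0.0453). Without that filter the male difference was called too (1.16, 0.0109). These settings also called many other genes for the sex difference over all kept cells, 1142 of them without WT female 3, against 0 with the filter and all 14 libraries. Leaving out the MB22 libraries also leaves out WT female 3. Over all kept cells edgeR called 0 of 11643 genes in males (0%), with 1792 at an unadjusted p under 0.05 and 15 calls by DESeq2. Macrophage-like cells, the class highest in Apoe, were 1.11, 1 and 0.84% of kept cells in WT males. In THY-Tau22 males they were 2.83, 2.18 and 2.15%. Their part in the Apoe level over all kept cells was not tested.

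Apoe values of males also separated in the other glia. Oligodendrocyte-like cells had 782 ± 95.2 CPM in WT males and 1761 ± 439 CPM in THY-Tau22 males, OPC-like cells 1434 ± 188 and 2596 ± 378 CPM, and neither pair of groups overlapped. Of all genes tested, 21.7% in oligodendrocyte-like and 12.5% in OPC-like cells separated the males in this direction. In oligodendrocyte-like cells edgeR gave 0.95 ± 0.28 in males (adjusted p = 0.0909). This was called in 3 of 26 settings (without WT female 2, WT female 3 or the MB22 libraries, with a lowest adjusted p of 0.0286). Between the sexes it gave 1.47 ± 0.37 (0.0533), called in 6 of 26 (DESeq2, no filter, and without THY-Tau22 male 2, THY-Tau22 female 4, WT female 3 or the MB22 libraries, with a lowest of 0.00121). Leaving out 1 library gave up to 129 calls in males in this class and up to 488 for the sex difference. With all 14 libraries these counts were 2 and 13. Low-count barcodes, which may hold free RNA or shallow cells, separated the males too: Apoe was 1539, 1641 and 1412 CPM there in WT males and 3454, 2505 and 3154 CPM in THY-Tau22 males (1530 ± 115 against 3038 ± 485 CPM). The share of all genes that separated the males in these barcodes was not computed. Summed astrocyte markers in microglia-like cells were 633, 664 and 683 CPM in WT males and 601, 645 and 1193 CPM in THY-Tau22 males 1, 2 and 3. Only THY-Tau22 male 3 lay above the WT range. By group mean 10 of 11 markers were higher in THY-Tau22 males, and the share of all genes at a higher mean is not given here. Summed macrophage markers ran from 4.74 to 23.4 CPM in WT and from 9.53 to 33.6 CPM in THY-Tau22 males, with 4 of 7 higher. Between the male means, microglial Apoe differed 4.05-fold, beside astrocyte marker sums of 813 and 660 CPM in THY-Tau22 and WT males. Microglial Apoe scaled from these markers by each library's astrocyte-like ratio was 106, 117 and 110 CPM in WT males. In THY-Tau22 males it was 224, 160 and 495 CPM. The part of astrocyte and macrophage RNA in the result was not tested.

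**Figure D2:**
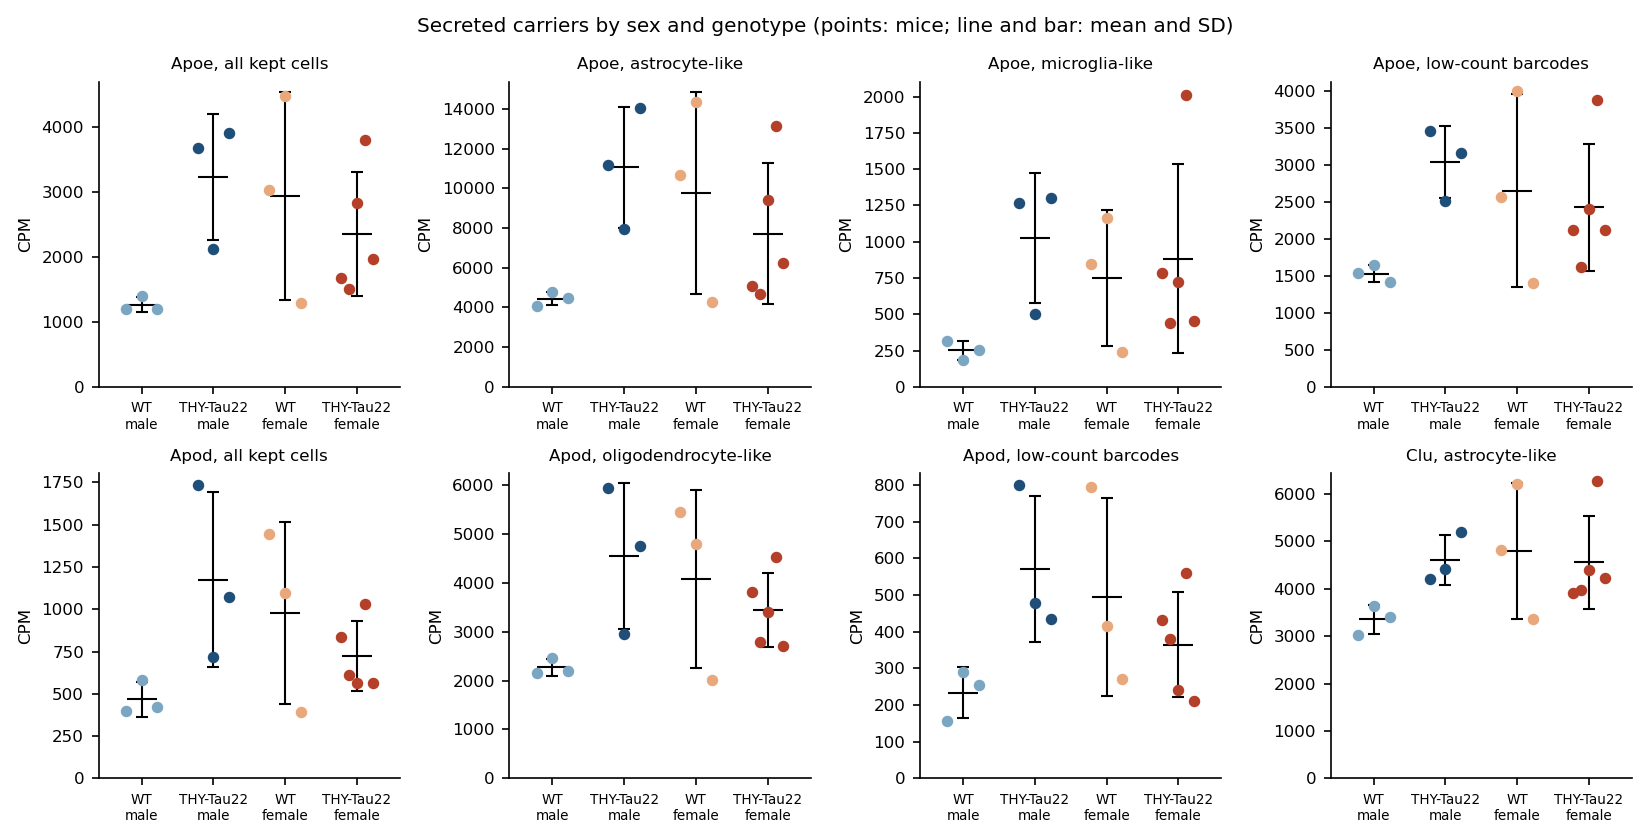
CPM of Apoe, Apod and Clu per mouse by sex and genotype; points are mice, horizontal lines means and bars SD (3 WT and 3 THY-Tau22 males, 3 WT and 5 THY-Tau22 females). In males, Apoe in microglia-like cells runs from 187 to 319 CPM in WT and from 505 to 1300.0 CPM in THY-Tau22 mice, and low-count barcodes separate in the same direction; in females every panel overlaps.

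Apod was not called with the filter and all 14 libraries, although its values separated in males. In oligodendrocyte-like cells it was 2155, 2461 and 2192 CPM in WT males and 5934, 2959 and 4747 CPM in THY-Tau22 males. The groups did not overlap (2269 ± 167 against 4547 ± 1497 CPM), and 21.7% of the genes tested in this class separated the males likewise. The edgeR fold change of Apod was 0.78 ± 0.28 with an adjusted p of 0.146. In females the values were 5443, 4785 and 2006 CPM in WT and 3812, 2785, 3400.5, 4525 and 2711 CPM in THY-Tau22 mice, which overlapped (-0.18 ± 0.25, adjusted p = 0.994). Over all kept cells Apod had a male fold change of 1.16 ± 0.36 (adjusted p = 0.234) and a female one of -0.38 ± 0.31, with 1.54 ± 0.47 between the sexes (adjusted p = 0.291). The sex difference was called over all kept cells without WT female 3 (1.87, adjusted p = 0.0121), without the MB22 libraries (1.80, 0.0217) and without the filter on low counts (1.49, 0.0104), and in oligodendrocyte-like cells, where it was 0.97 ± 0.37, without WT female 3 and without the MB22 libraries (1.24, 0.0122, and 1.16, 0.0300). Without WT female 3 it was called for 1142 genes over all kept cells. Leaving out 1 library gave up to 488 such calls in oligodendrocyte-like cells. Without the filter the male difference over all kept cells was called as well (1.15, adjusted p = 0.00532). In astrocyte-like cells, where Apod had 1 to 22 UMIs per library, the male fold change was 2.27 ± 0.52 (adjusted p = 0.100), called in the same 3 settings as Apoe in oligodendrocyte-like cells of males (lowest 0.0139). Apod there was above the low-count level in 0 of 14 libraries, in CPM without mitochondrial genes. Its ratio to summed oligodendrocyte markers had a median of 0.0350, beside 0.0247 in oligodendrocyte-like cells. Whether this Apod came from other cells was not tested. Low-count barcodes held 233 ± 69.8 CPM of Apod in WT males and 571 ± 200 CPM in THY-Tau22 males, also without overlap. The share of all genes that separated there was not computed.

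Clu was not called in any class. In astrocyte-like cells it was 3026, 3640 and 3397 CPM in WT males and 4215, 4413 and 5209 CPM in THY-Tau22 males. These CPM values did not overlap (3354 ± 309 against 4612 ± 526 CPM, 1.38-fold), as for 22.2% of the genes tested in this class. On the edgeR scale, which normalises by the trimmed mean of M values, the fold change of Clu was 0.20 ± 0.25 (adjusted p = 0.705). Females overlapped, at 4828, 6208 and 3358 CPM in WT and 3907, 3984, 4391, 6281 and 4234 CPM in THY-Tau22 mice, with a fold change of -0.01 ± 0.22. Over all kept cells it was 0.06 ± 0.24 in males and -0.08 ± 0.22 in females, and in low-count barcodes Clu was 997 ± 172 CPM in WT and 948 ± 187 CPM in THY-Tau22 males.

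Neither exporter was called. Abca1 in microglia-like cells was 234, 234 and 228 CPM in WT males and 185, 210 and 232 CPM in THY-Tau22 males, so the groups touched, and its edgeR fold change was -0.24 ± 0.25 (adjusted p = 0.665). In CPM computed without mitochondrial genes the THY-Tau22 males were below the WT males without overlap (236 ± 21.2 against 282 ± 8.70). In females the microglial fold change was 0.25 ± 0.23 (adjusted p = 0.996), from 161, 145 and 234 CPM in WT and 217, 249, 186, 204 and 254 CPM in THY-Tau22 mice. In astrocyte-like cells Abca1 was 125 ± 6.52 CPM in THY-Tau22 and 94.6 ± 17.0 CPM in WT males, without overlap, as for 22.2% of the genes tested there. Its edgeR fold change was 0.15 ± 0.37. Over all kept cells the difference between the sexes was -0.47 ± 0.34 (adjusted p = 0.551), which was called without WT female 3 (-0.92, 0.0474). That setting called 1142 genes for the sex difference over all kept cells.

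Abcg1 in oligodendrocyte-like cells was 103, 131 and 177 CPM in WT males and 137, 125 and 123 CPM in THY-Tau22 males, and the groups overlapped (-0.26 ± 0.30, adjusted p = 0.683). In females it was 109, 108 and 90.8 CPM in WT and 145, 86.4, 142, 146 and 124 CPM in THY-Tau22 mice (0.37 ± 0.29, adjusted p = 0.994). In microglia-like cells its fold change was 0.37 ± 0.34 in males and -0.33 ± 0.30 in females. These values rest on 14 to 42 UMIs per library in oligodendrocyte-like and 11 to 41 in microglia-like cells, so small differences were not detectable at this depth. In OPC-like cells neither Abca1 nor Abcg1 passed the filter on low counts.

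Lrp1 in OPC-like cells was 445, 286 and 289 CPM in WT males and 359, 325 and 273 CPM in THY-Tau22 males, on 6 to 42 UMIs per library. The groups overlapped, as did the females at 361, 735 and 378 CPM in WT and 447, 472, 382, 267 and 361 CPM in THY-Tau22 mice. The fold changes were -0.16 ± 0.36 in males and -0.19 ± 0.31 in females (adjusted p = 0.900 and 1.00). In microglia-like cells they were -0.21 ± 0.27 and -0.15 ± 0.24, and over all kept cells -0.12 ± 0.23 and -0.09 ± 0.20.

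**Figure D3:**
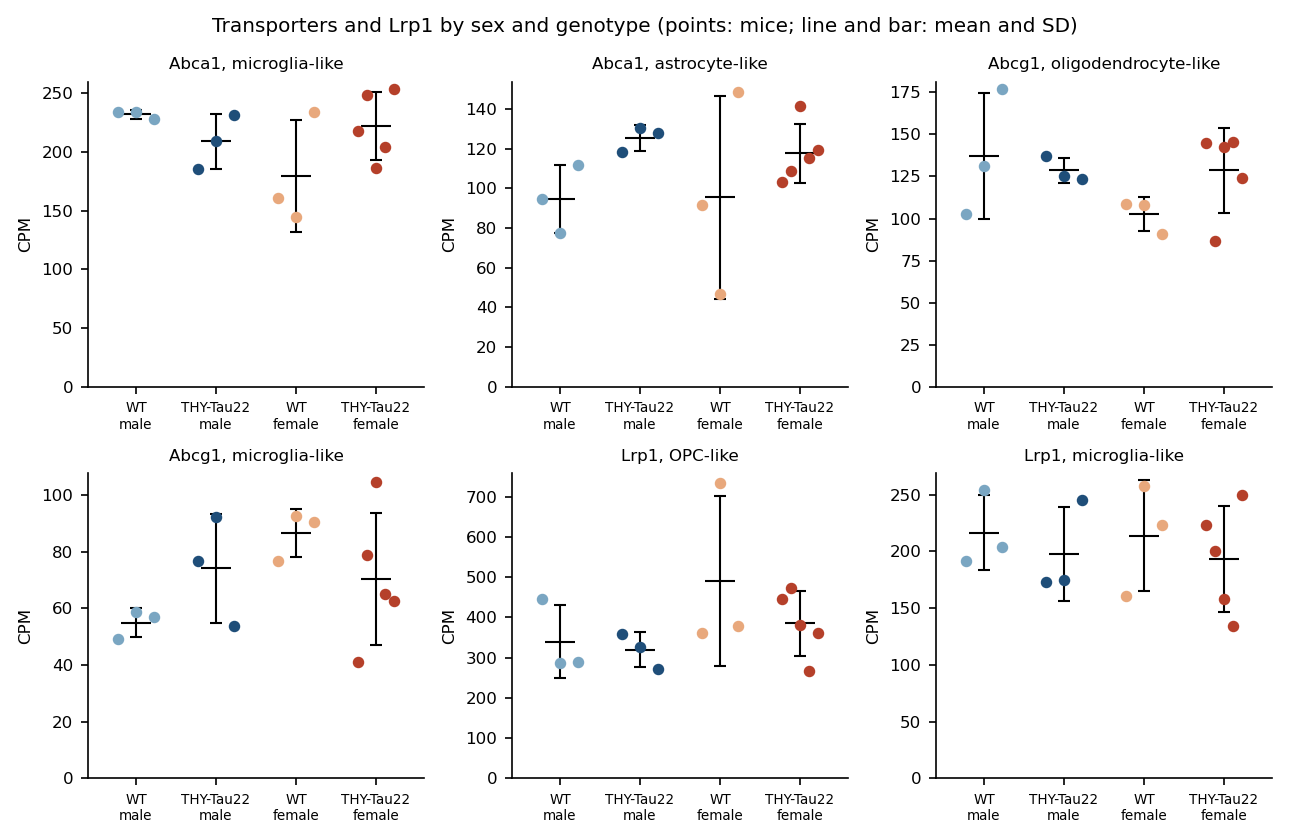
CPM of Abca1, Abcg1 and Lrp1 per mouse by sex and genotype in the classes where each was highest; points are mice, horizontal lines means and bars SD. WT and THY-Tau22 values overlap in every panel except Abca1 in astrocyte-like cells of males (77.5 to 112 CPM against 118 to 130.5 CPM).

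Each of the 6 genes passed the filter on low counts over all kept cells and in microglia-like cells, 5 did so in astrocyte-like cells (not Abcg1), 4 in oligodendrocyte-like cells and 3 each in endothelial-like, neuron-like and OPC-like cells. Apart from microglial Apoe in males, edgeR called none of them at any level in males, females or the difference between them. In males, 2 of 6 lay above WT without overlap over all kept cells, where 22.4% of the genes tested did, 1 of 6 in microglia-like cells (15.9%), 4 of 5 in astrocyte-like cells (22.2%) and 2 of 4 in oligodendrocyte-like cells (21.7%). In endothelial-like cells it was 2 of 3 (18.5%), in OPC-like cells 1 of 3 (12.5%) and in neuron-like cells 0 of 3 (8.44%). None lay below without overlap in males, where 6.68% of genes did over all kept cells and 8.61% in microglia-like cells. In females none lay above or below without overlap, where 0.679% and 0.507% of genes did over all kept cells and 1.28% and 0.648% in microglia-like cells. The shares of all tested genes that edgeR called were 0.0505% in oligodendrocyte-like and 0.0801% in OPC-like cells of males, 0.0253% in oligodendrocyte-like cells of females, and 0.328% for the sex difference in oligodendrocyte-like cells. The median log2 fold change of the 6 genes in males was 0.11 over all kept cells, beside 0.01 for all genes tested, and 0.28 beside 0.01 in microglia-like cells.

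**Figure D4:**
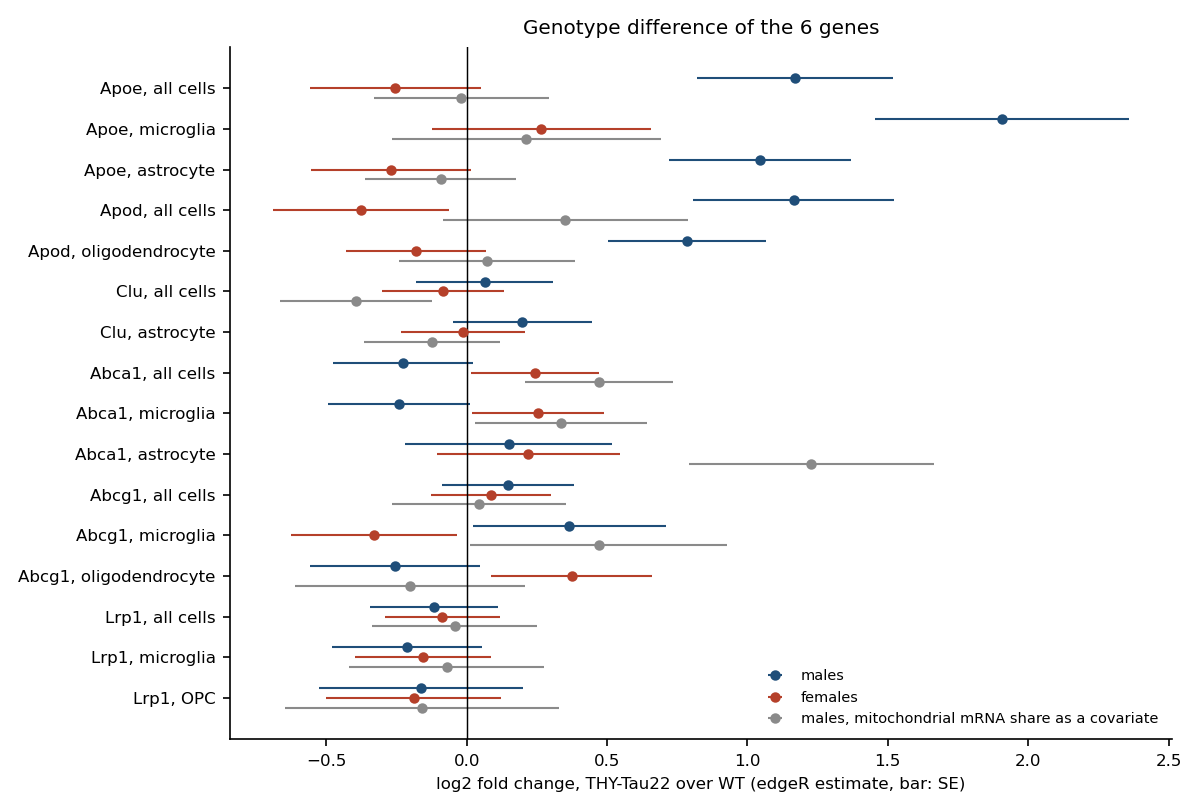
edgeR log2 fold change of THY-Tau22 over WT, with SE bars, for each gene where its level was highest and over all kept cells, in males (blue), in females (red) and in males with the mitochondrial mRNA share as a further term (grey). Apoe in microglia-like cells of males is at 1.91 ± 0.45 and goes to 0.21 ± 0.48 with that term, which cannot be told apart from genotype in males. Most other estimates lie within 2 SE of 0.

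The share of mitochondrial mRNA moved with Apoe. This share counts all mitochondrial genes except the ribosomal RNAs mt-Rnr1 and mt-Rnr2, so any transfer RNA genes were not excluded. In the median kept cell it was 0.409, 0.571 and 0.351% of UMIs in the WT males and 0.952, 0.889 and 1.33% in the THY-Tau22 males. The males did not overlap (0.444 ± 0.114 against 1.06 ± 0.236%; exact permutation p = 0.10), whereas females did (0.840 ± 0.420% in WT, 0.737 ± 0.147% in THY-Tau22). All mitochondrial genes together, ribosomal RNA included, went the other way in males, 20.3 ± 2.96% in WT and 13.2 ± 0.945% in THY-Tau22 mice. Over the 14 libraries the mitochondrial mRNA share and the Apoe level over all kept cells had a Pearson r of 0.922 and a Spearman rho of 0.982 (permutation p = 1e-05, the smallest these permutations can give; adjusted p = 0.000165 and 8.25e-05 over 33 relations each), and r was 0.887 without the 2 libraries farthest from the median share. Within the 8 female libraries r was 0.949 and rho 0.976 (exact permutation p = 0.000174 and 0.000397; adjusted p = 0.000955 and 0.00131), and within the 8 THY-Tau22 libraries r was 0.828 and rho 0.952 (exact permutation p = 0.00499 and 0.00114). In males the share separated the genotypes, so no correlation within males is given.

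In astrocyte-like cells the coefficients for Apoe were r = 0.933 and rho = 0.965 (permutation p = 1e-05 for both; r = 0.886 without the 2 farthest libraries), and in low-count barcodes r = 0.864 and rho = 0.952 (permutation p = 4e-05 and 1e-05; 0.855 without them). In microglia-like cells they were r = 0.725 and rho = 0.925 (permutation p = 0.00297 and 3e-05, adjusted 0.00891 and 0.000198; 0.699 without them), and within females r was 0.634 there (exact permutation p = 0.0937) with a rho of 0.952 (p = 0.00114). Apod in oligodendrocyte-like cells had r = 0.790 and rho = 0.916 (permutation p = 0.00077 and 1e-05; 0.805 without them). Lrp1 over all kept cells had r = 0.356 and rho = 0.00220 (permutation p = 0.211 and 1.0), with r = -0.463 without the 2 farthest libraries, and Abca1 had r = -0.487 and rho = -0.385 (permutation p = 0.0770 and 0.176), with r = -0.605 without them. An alternative added after seeing the data had log2 of each library's median share as a further term in the fit. With it the male fold change of Apoe was 0.21 ± 0.48 in microglia-like cells, -0.09 ± 0.27 in astrocyte-like cells and -0.02 ± 0.31 over all kept cells. That of Apod was 0.07 ± 0.31 in oligodendrocyte-like cells and 0.35 ± 0.44 over all kept cells. With mitochondrial genes left out of the CPM, Apoe in microglia-like cells was still 3.73-fold higher in THY-Tau22 than in WT males (1153 ± 491 against 309 ± 88.3 CPM), and in astrocyte-like cells 2.18-fold. In these 6 male libraries genotype and mitochondrial mRNA share cannot be told apart.

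**Figure D5:**
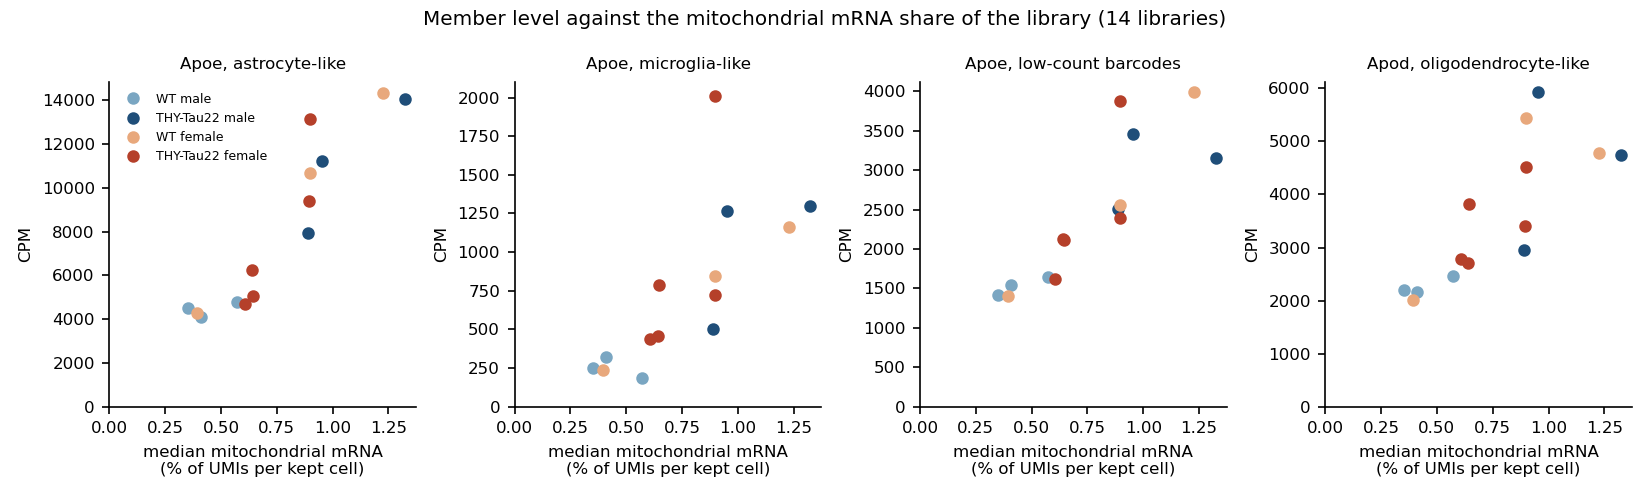
Level of Apoe (astrocyte-like, microglia-like, low-count barcodes) and of Apod (oligodendrocyte-like), in CPM, against the median percentage of a kept cell's UMIs from mitochondrial mRNA; each point is 1 of 14 libraries, coloured by sex and genotype. Level and share rise together in each panel (r = 0.933, 0.725, 0.864 and 0.790), WT males at 0.351 to 0.571% and THY-Tau22 males at 0.889 to 1.33%.

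Other genes of lipid carriage were read from 3 lists. Of 13 further apolipoproteins 9 were listed, all at low counts: Apool and Apoo, which belong to a mitochondrial membrane complex despite their names, led at 13.6 and 6.01 CPM over all kept cells, followed by Apoc1, a small exchangeable apolipoprotein, at 2.57 CPM. Only 2 passed the filter over all kept cells and neither was called. Of 20 receptors and partners, 16 were tested over all kept cells and none was called, nor any of the 7 tested in microglia-like cells. Trem2, a microglial receptor that binds lipids and Apoe, had the smallest p of those named, with 350 ± 110 CPM in WT and 819 ± 344 CPM in THY-Tau22 males in microglia-like cells (1.11 ± 0.32, adjusted p = 0.0810) and -0.47 ± 0.28 in females. Mylip, which degrades receptors of this family, had 0.03 ± 0.25 in microglia-like cells of males, and Lrpap1, the chaperone of Lrp1, 0.34 ± 0.31.

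Of 25 genes of cholesterol efflux, trafficking and LXR signalling, 22 were tested over all kept cells and 0 were called in either sex; 17 of 22 had an estimate above 0 in males, with a median of 0.21 beside 0.01 for all genes. Npc2, which hands cholesterol out of lysosomes, was 292 ± 13.1 CPM in WT males and 477 ± 18.8 CPM in THY-Tau22 males (0.53 ± 0.27, adjusted p = 0.347). Pltp, which transfers phospholipid between particles, had 0.28 ± 0.29 over all kept cells and 0.76 ± 0.29 in endothelial-like cells of males (adjusted p = 0.224), and Abca9 -0.21 ± 0.23.

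Patterns most like each gene's were sought over 84 points, the 6 larger classes in 14 libraries, on log2(CPM + 10) among 6646 genes with a mean of at least 50 CPM in 1 of these classes. Points share libraries and classes, so these coefficients describe. Among the genes most like Clu were Slc1a2 (r = 0.946) and Cxcl14 (0.940), and Apod was most like Sept4 (0.902), Ermn (0.900) and Ppp1r14a (0.899). Apoe, spread over more classes, had lower coefficients with Ndrg2 (0.872), Prdx6 (0.861) and Gpr37l1 (0.854). Lrp1 was most like Ralgps2 (0.849), Pid1 (0.845) and Serpine2 (0.844), Abcg1 most like Dock10 (0.824), March1 (0.790) and Ppp1r21 (0.771), and Abca1 most like Gsap (0.802), Sall3 (0.796) and Hspa5 (0.778).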

How the data were processed

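UMI counts per gene and barcode were deposited by the authors as 1 table of 3000 barcodes per library; per the labels the build was mm10, and the aligner and annotation are not given in the sources used here. Barcodes with 200 to 7000 detected genes were kept and clustered (scanpy 1.11.5, Leiden resolution 0.5) without the 6 genes and the pathway lists; clusters were named from marker lists, and 5 doublet-rich clusters (806 cells, 3.28%; limit set after seeing the data) stayed unnamed with 2 others. No cell was removed for its mitochondrial share (a limit of 5% was an alternative). UMIs were summed per library and class with at least 10 cells and tested with edgeR 4.0.16 (TMM, quasi-likelihood) over all 14 libraries in 1 fit, with contrasts for males, females and their difference, after tests on simulated data. The labels describe 1 library per mouse, but the titles of WT male 1 and THY-Tau22 female 1 carry the same code, of unstated meaning, so that these are separate mice is not shown by the titles. Genes named were the 6 members over all kept cells and in each tested class whose mean CPM was at least 50% of the highest, with the 3 most abundant genes of each pathway list and the 3 genes of most similar pattern, of which 1 is not reported here. The members and lists were chosen with earlier results of these data known. Alternatives were DESeq2 1.42.0, RLE scaling, no filter, a mitochondrial limit, doublet removal, Leiden 1.0, other handling of the shared library or the MB22 code, and each library left out; a mitochondrial mRNA term, unnamed clusters left out and CPM without mitochondrial genes were added after seeing the data. The labels' groups were used as given. Intervals cover counting error only.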

Additional observations from a re-analysis of the deposited data

Results flagged for a closer look

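In THY-Tau22 females, 6 of 48 groups of 5 values had 1 mouse set apart by a Dixon gap test, which by chance happens in about 1 of 20 groups. The highest values were 2012.58 CPM of Apoe in microglia-like cells (next 784.662), 633.179 CPM of Apod in neuron-like cells (next 152.783), 6281.05 CPM of Clu in astrocyte-like cells (next 4390.55), 113.292 CPM of Abca1 over all kept cells and 22.1048 CPM of Abcg1 in endothelial-like cells, and the lowest was 71.9616 CPM of Abca1 in low-count barcodes.

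For 13 pairs of gene and level the log2 fold change of males exceeded that of females with an edgeR p under 0.05 before adjustment, and for none after it. All 6 genes were tested over all kept cells and in microglia-like cells, 5 in astrocyte-like, 4 in oligodendrocyte-like and 3 in each other class. The share of all genes at such a p is not given here, so the count is not shown to be particular to these genes. The levels come from the same mice and most pairs are Apoe or Apod, so they are not separate results. For Apoe the difference of log2 fold changes was 1.4223 over all kept cells (adjusted p = 0.291), 1.6402 in microglia-like (0.222), 1.3142 in astrocyte-like (0.133), 1.4687 in oligodendrocyte-like (0.0533), 1.433 in endothelial-like (0.172), 1.365 in neuron-like (0.864) and 1.0152 in OPC-like cells (0.611). For Apod it was 1.5414 over all kept cells (0.291), 2.5389 in astrocyte-like (0.129), 0.96562 in oligodendrocyte-like (0.189), 1.5339 in endothelial-like (0.254) and 2.5269 in neuron-like cells (0.864). For Clu in endothelial-like cells it was 1.1192 (0.320).

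Low-count barcodes, which enter no genotype test across genes, held more Apoe in THY-Tau22 than in WT males (3037.57 against 1530.4 CPM) and more Apod (570.576 against 233.388 CPM), without overlap. How many of all genes separated the males in these barcodes was not computed, so this is not shown to be particular to these genes.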

How the results depend on the processing

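Counts of genes called are given as males, females or sex difference, and estimates as log2 fold changes. The cause was not tested for any change below. DESeq2 called 15 genes over all kept cells, 95 in microglia-like, 4 in astrocyte-like, 30 in oligodendrocyte-like and 0 in OPC-like cells in males (edgeR 0, 39, 0, 2 and 1), 0 in oligodendrocyte-like cells in females (edgeR 1), and 20, 1 and 21 for the sex difference in microglia-like, astrocyte-like and oligodendrocyte-like cells (edgeR 0, 0 and 13). Without a filter on low counts the same 5 levels gave 295, 84, 29, 30 and 1 in males; females had 32, 8, 1 and 4 and the sex difference 182, 14, 21, 33 and 1. Leiden 1.0 gave 4 in oligodendrocyte-like and 0 in OPC-like cells in males. Doublet removal gave 0 in OPC-like cells in males and 1 for the sex difference in astrocyte-like cells, with Abca1 at 7.03 CPM in neuron-like cells, Clu at -0.0027 over all kept cells in males and Lrp1 at -0.014 for the sex difference in OPC-like cells.

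With all 16 libraries as labelled, males had 0 calls in microglia-like, oligodendrocyte-like and OPC-like cells, the sex difference 0 in oligodendrocyte-like cells, and Abcg1 was at -0.020 for the sex difference over all kept cells. With the shared library as a THY-Tau22 male there was 1 call in microglia-like cells and 0 in oligodendrocyte-like and OPC-like cells in males, 0 for the sex difference in oligodendrocyte-like cells, Abcg1 at -0.0021 and Lrp1 at 0.0052 in OPC-like cells. As a WT male it gave 3, 89, 6 and 2 (all kept, microglia-like, oligodendrocyte-like, OPC-like), 5, 2 and 26 for the sex difference in microglia-like, astrocyte-like and oligodendrocyte-like cells, and Lrp1 at -0.075. Without the MB22 libraries males had 88, 159, 117, 106 and 5, females 1, 4, 2 and 1 by class, and the sex difference 711, 272, 478, 325 and 7. Without a filter Clu in astrocyte-like cells of females was 0.063 and Lrp1 -0.32 for the sex difference in OPC-like cells, and without unnamed clusters Lrp1 was 0.00098 over all kept cells for the sex difference.

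With the mitochondrial mRNA term males had 0 calls in microglia-like, oligodendrocyte-like and OPC-like cells, females 1, 0 and 1, and the sex difference 0 in oligodendrocyte-like cells. Estimates that changed sign in males were Apoe at -0.019 over all kept and -0.093 in astrocyte-like cells, Clu at -0.39 and -0.12, and Abca1 at 0.47 over all kept and 0.34 in microglia-like cells. For the sex difference they were Apoe at -0.26 in microglia-like cells, Clu at -0.35 over all kept and -0.13 in astrocyte-like cells, Abca1 at 0.18, 0.85 and 0.051 (all kept, astrocyte-like, microglia-like), Abcg1 at -0.038, and Lrp1 at 0.046 over all kept and 0.090 in microglia-like cells; Clu in astrocyte-like cells of females was 0.011.

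Leaving out 1 library gave 0 to 71 calls over all kept, 0 to 175 in microglia-like, 0 to 125 in astrocyte-like, 0 to 129 in oligodendrocyte-like and 0 to 5 in OPC-like cells in males, 0 to 2, 0 to 13, 0 to 3 and 0 to 3 by class in females, and 0 to 1142, 0 to 448, 0 to 659, 0 to 488 and 0 to 5 for the sex difference, with 1142 and 448 without WT female 3. Estimates that crossed 0 were, in females, Apoe at -0.56 to 0.095 over all kept, -0.55 to 0.026 in astrocyte-like and -0.24 to 0.72 in microglia-like cells, Apod at -0.72 to 0.030 and -0.48 to 0.092, Clu at -0.20 to 0.17 and -0.10 to 0.12, Abca1 at -0.20 to 1.07 in astrocyte-like cells, and Lrp1 at -0.24 to 0.012 over all kept and -0.32 to 0.031 in OPC-like cells. In males they were Clu at -0.10 to 0.19 and Abcg1 at -0.058 to 0.30 over all kept and Lrp1 at -0.34 to 0.13 in OPC-like cells. For the sex difference they were Abca1 at -0.93 to 0.34 in astrocyte-like cells, and Abcg1 at -0.15 to 0.21 and Clu at -0.11 to 0.27 over all kept cells. Lrp1 was at -0.18 to 0.13 over all kept, -0.22 to 0.081 in microglia-like and -0.22 to 0.31 in OPC-like cells. No paired analysis was possible because replicate numbers follow accession order; 1 code in the titles is shared, by WT male 1 and THY-Tau22 female 1, which no contrast within a sex compares. Low counts of Abca1, Abcg1 and Lrp1 limit what could be detected.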
